A study of Mus musculus with 12 samples.

Results

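The nuclear genes of the mitochondrial respiratory chain were followed in 12 poly(A) RNA libraries of a mouse erythroid cell line. They were taken by symbol, as every row of the expression tables named for a subunit of complex I (Nduf genes), complex II (Sdh), complex III (Uqcr), complex IV (Cox genes of the 4 to 8 series with a letter) or complex V, the ATP synthase (Atp5). Of 55487 rows, 102 matched, under 101 symbols, because Atp5o has a second row at 0 in every library. Protein-coding genes made up 84 of the 101 symbols, with 37 in complex I, 4 in complex II, 8 in complex III, 18 in complex IV and 17 in complex V. The other 17 are pseudogene or near-identical copies and are described on their own. Ndufa4 and its relative Ndufa4l2 were placed with complex IV, where the Ndufa4 protein resides despite its name. The symbols do not take Cox4i1, Cyc1, Cycs, the ATP synthase inhibitor Atpif1 or the assembly factors, which are given separately.

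The cells were G1E-ER4, an immortalised erythroid progenitor line without working Gata1, whose introduced GATA1-estrogen receptor fusion protein lets estradiol switch on erythroid maturation. All 4 groups of 3 libraries received 100 nM β-estradiol and were collected after 24 h, in medium with erythropoietin and Kit ligand. Added at the start of differentiation were 50 µM DTPA, a metal chelator used here to lower zinc, 50 µM DFO, an iron chelator, 0.2 mM SA, used to block the heme synthesis enzyme ALAD, or nothing in the control. The written treatment protocol names DFO again for the ALAD group, so the titles and treatment tags, which name SA, were followed. A single line was used throughout. The titles call the replicates biological ("biol rep") without saying that they were separate cultures, so p-values measure the spread between these libraries. Each library held between 19857400 and 24326329 reads on genes, and between 98.8% and 99.0% of low values were whole reads to within 0.1 read.

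Complexes I, III and IV pass electrons towards oxygen and pump protons, complex II feeds in electrons from succinate, and complex V uses the proton gradient to make ATP. Iron-sulfur clusters and hemes carry the electrons, and several subunits bind zinc. Most subunits are encoded in the nucleus and assemble with a few encoded in mitochondrial DNA, and red cells lose their mitochondria at the end of maturation.

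The promoters of many respiratory genes bind NRF1 and ETS factors such as GABP, and erythroid promoters often bind GATA1. The 250 bases upstream of the RefSeq start (build GRCm38.p6) were available for 69 of the 84 coding genes. A gene was counted if any of its windows held the motif, and the background was all 27025 genes with a window, expressed or not. The NRF1 motif, searched on both strands as GCGCA, any base, then GCGC, was found in 13 of the 69 (18.8%), against 4.23% of those genes. An ETS motif, CCGGAAG, was found in 12 of the 69 (17.4%), against 7.83% of those genes. The GATA motif AGATAA, searched like the ETS motif on both strands, was found in 6 of the 69 (8.70%), against 11.4% of those genes. Shown first are 4 windows with the NRF1 motif in capitals, from genes that fell with DTPA, namely Atp5k (chr5:108434400-108434649, minus strand), Ndufa5 (chr6:24527691-24527940, minus strand, for the upstream one of its starts), Ndufs6 (chr13:73328483-73328732, minus strand) and, for its 3 matches, Ndufb4 (chr16:37654369-37654618, minus strand). The fifth is Cox7a1 (chr7:30183921-30184170, plus strand), the member that rose most with DTPA, with its GATA motifs in capitals. None of the first 4 windows holds the ETS or GATA letters, and the fifth holds neither the NRF1 nor the ETS letters. The windows are written 5′ to 3′.
Atp5k: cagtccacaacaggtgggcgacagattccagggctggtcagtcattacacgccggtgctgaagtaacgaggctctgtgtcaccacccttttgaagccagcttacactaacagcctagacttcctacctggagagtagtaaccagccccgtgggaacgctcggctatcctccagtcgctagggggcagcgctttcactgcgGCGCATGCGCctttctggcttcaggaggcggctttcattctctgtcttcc
Ndufa5: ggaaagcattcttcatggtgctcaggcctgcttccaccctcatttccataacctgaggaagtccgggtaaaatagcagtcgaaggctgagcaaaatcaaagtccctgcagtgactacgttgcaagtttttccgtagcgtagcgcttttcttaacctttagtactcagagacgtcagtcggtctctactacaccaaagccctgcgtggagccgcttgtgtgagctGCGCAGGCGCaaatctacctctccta
Ndufs6: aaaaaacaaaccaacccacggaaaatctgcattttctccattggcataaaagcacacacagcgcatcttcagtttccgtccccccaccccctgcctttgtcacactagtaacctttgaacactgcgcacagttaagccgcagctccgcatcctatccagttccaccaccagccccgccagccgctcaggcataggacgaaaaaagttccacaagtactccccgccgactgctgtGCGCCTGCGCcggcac
Ndufb4: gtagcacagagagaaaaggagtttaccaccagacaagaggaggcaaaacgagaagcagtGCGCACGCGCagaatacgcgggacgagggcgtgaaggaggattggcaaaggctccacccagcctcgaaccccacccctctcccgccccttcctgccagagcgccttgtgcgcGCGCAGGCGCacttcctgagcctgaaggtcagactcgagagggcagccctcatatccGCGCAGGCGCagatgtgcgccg
Cox7a1: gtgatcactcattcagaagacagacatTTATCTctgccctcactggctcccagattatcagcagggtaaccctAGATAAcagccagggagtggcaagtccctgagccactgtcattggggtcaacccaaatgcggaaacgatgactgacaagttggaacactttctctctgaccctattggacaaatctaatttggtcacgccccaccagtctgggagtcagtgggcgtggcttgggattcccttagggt
Of the 13 genes with the NRF1 letters, 12 fell with DTPA, with a median log2 change against control of -0.52 over the 13. Of the 54 tested genes with a window but without those letters, 41 fell and the median was -0.42. Among all 80 tested coding members 64 fell, as did 42.1% of all genes tested. Whether the motif bears on the change was not tested. A match describes these letters in this window only, and binding was not measured.

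Expression was given as TPM, the transcript share of a gene after its reads are scaled by gene length and library total, so levels of different genes can be set side by side. In control cells the coding subunits spanned a wide range. Complex I genes had a median of 152 TPM, and Ndufa6 was highest at 842 TPM while Ndufb2 had only 1.46 TPM. Complex IV held the most abundant transcript, Cox6a1, at 2014 TPM on average. The medians were 116 TPM in complex II, 423 TPM in complex III, 381 TPM in complex IV (over its 14 genes at or above 1 TPM) and 246 TPM in complex V. Tests were made with limma on log2(TPM + 1) over all 11917 genes that reached 1 TPM in 3 or more libraries, and a gene was called at a Benjamini-Hochberg adjusted p below 0.05. Of the 101 symbols, 93 passed that filter, 80 of them coding. The coding genes that did not were the muscle or testis forms Cox6a2, Cox8b, Cox8c and Cox7b2, all under 1 TPM in every library, with Cox8b at 0 throughout. All log2 fold changes below are differences between group means of log2(TPM + 1).

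With DTPA, the respiratory chain transcripts were lower as a group. Summed over the 84 coding genes, they made up 2.24 ± 0.0481% of all TPM in DTPA cells, 2.88 ± 0.00901% in DFO cells, 2.80 ± 0.0393% in SA cells and 2.83 ± 0.0215% in control cells (SD, n = 3 each). Of the 93 tested members, 71 fell, 5 rose and 17 did not pass the test against control, with a median log2 fold change of -0.45. DTPA moved much of the transcriptome: 65.5% of all tested genes were called, 42.1% lower and 23.5% higher, and the median log2 fold change of all tested genes was -0.11. Among the 80 coding members, 64 fell and 5 rose, and in 66 of them all 3 DTPA libraries lay below all 3 control libraries, against 44.1% of all genes tested. The median standard error of the change was 0.037 over these members and 0.061 over all genes tested. A smaller standard error lets a smaller change be called. Most of the falls were moderate. The median coding gene other than Ndufa4l2 had 0.739 of its control TPM, and 5 coding genes fell by at least 1 on the log2 scale. Fewer cells of a type and less RNA per cell cannot be told apart in bulk libraries.

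TPM are shares of a library, and rescaling the libraries shifts all DTPA changes together. Scaling by the median of ratios moved the median of all genes to 0.00 and changed the split over all genes to 3842 higher and 3858 lower, where TPM gave 2796 higher and 5014 lower. Of the 93 members, 61 were then lower and 11 higher, 66 of the calls held in the same direction, and the members' median was -0.31. A trimmed-mean scaling gave the same counts of 61 and 11.

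**Figure D1:**
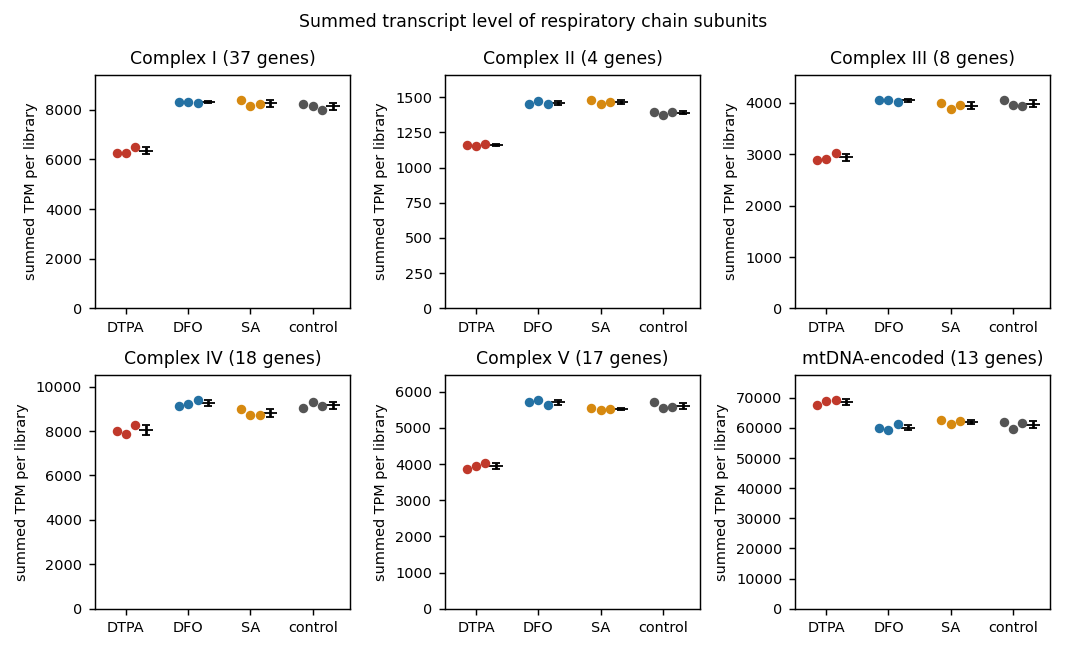
Summed TPM of the coding genes of each complex, and of the 13 subunit genes of mitochondrial DNA (mtDNA), in each library (points) with the group mean and SD (bars, n = 3). The DTPA libraries lie below the other 9 libraries in all 5 nuclear panels and above them in the mtDNA panel.

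The DTPA sums were the lowest in every complex. The complex I genes summed to 6351 ± 138 TPM in DTPA cells, 8299 ± 36.5 TPM in DFO cells, 8256 ± 135 TPM in SA cells and 8131 ± 123 TPM in control cells. Complex II summed to 1160.0 ± 6.60 TPM in DTPA cells, 1457 ± 14.1 TPM in DFO cells, 1467 ± 14.8 TPM in SA cells and 1389 ± 11.9 TPM in control cells. Complex III summed to 2939 ± 69.5 TPM in DTPA cells, 4043 ± 23.9 TPM in DFO cells, 3943 ± 67.0 TPM in SA cells and 3977 ± 68.6 TPM in control cells. In these 3 complexes, as in complexes IV and V, no DTPA library reached the lowest of the other 9. For complex IV the sums were 8045 ± 211 TPM in DTPA cells, 9253 ± 142 TPM in DFO cells, 8810.1 ± 163 TPM in SA cells and 9155 ± 149 TPM in control cells. For complex V they were 3948 ± 76.3 TPM in DTPA cells, 5708 ± 69.8 TPM in DFO cells, 5521 ± 32.1 TPM in SA cells and 5609.9 ± 86.6 TPM in control cells. The complex IV sum hides opposite movements of single genes, which are described below.

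**Figure D2:**
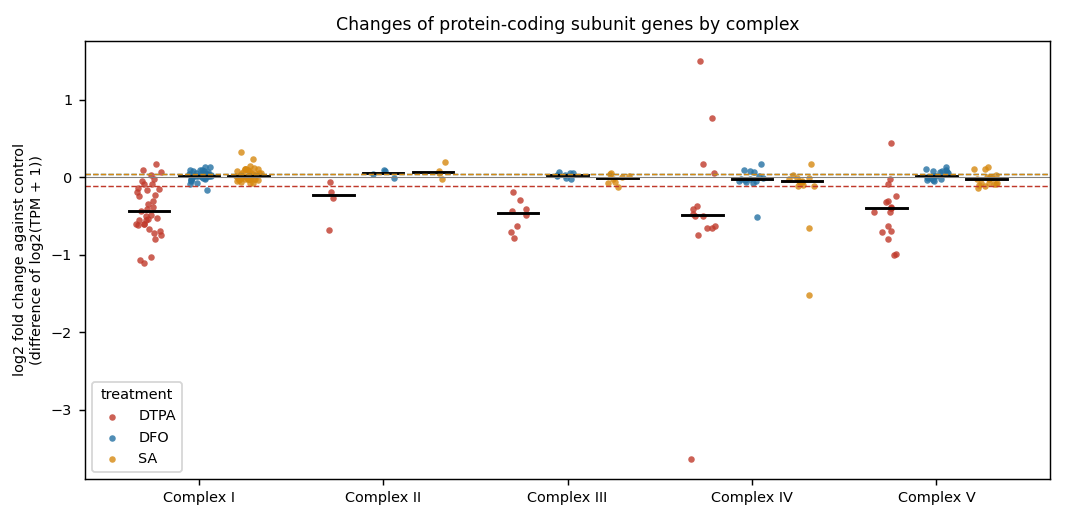
Log2 fold change against control of each tested coding gene (points), by complex and treatment, with the median of each set (black bars) and the median of all 11917 genes for each treatment (dashed lines). The DTPA medians of all 5 complexes lie below the DTPA line at -0.11, while most DFO and SA points lie near 0, and the called SA falls of Ndufa4l2 and Cox6b2 stand farthest below it.

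In complex I, 29 of the 37 genes fell with DTPA, 1 rose and 7 did not pass, with a median of -0.44. Among all genes tested, 42.1% fell and 23.5% rose. Accessory subunits of the membrane and peripheral arms gave the largest falls. Ndufb8, an accessory subunit of the membrane arm (chr19:44548572-44555440 in build mm10), had 46.9, 44.4 and 45.5 TPM in the DTPA libraries, 97.3, 97.3 and 99.9 TPM in the DFO libraries, 96.9, 98.8 and 98.9 TPM in the SA libraries and 105, 93.5 and 101 TPM in the control libraries. The DTPA libraries stood far below every other library, and the other 3 groups overlapped. Its log2 fold change with DTPA was -1.11 (SE 0.04, limma adjusted p = 2.12e-10). Ndufa5, an accessory subunit of the peripheral arm (chr6:24518666-24528013), had 53.4, 48.1 and 56.8 TPM in the DTPA libraries, 104, 103 and 112 TPM in the DFO libraries, 120.0, 113 and 119 TPM in the SA libraries and 111, 112 and 112 TPM in the control libraries. It fell by 1.07 on the log2 scale (limma adjusted p = 4.53e-09). Ndufc2, another membrane arm subunit (chr7:97400003-97407802), had 128, 133 and 133 TPM in the DTPA libraries, 267, 289 and 265 TPM in the DFO libraries, 278, 250.5 and 284 TPM in the SA libraries and 281, 269 and 259 TPM in the control libraries, a DTPA change of -1.03 (limma adjusted p = 4.59e-09). For both genes the DTPA libraries stood well under all others, and the SA libraries of Ndufa5 lay slightly above its control libraries. Ndufb4, a membrane arm subunit named for its promoter, had 92.0, 92.2 and 91.8 TPM in the DTPA libraries, against 163, 151 and 142 TPM in the control libraries, a change of -0.72 (limma adjusted p = 1.12e-07). Over the 30 accessory subunits of complex I, 23 fell, none rose and 7 did not pass on the TPM scale, with a median of -0.51 and a lowest value of -1.11. Under either rescaling, 24 of the 37 complex I genes fell, 4 rose and 9 did not pass.

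Core subunits of complex I that carry the iron-sulfur clusters, which pass electrons from NADH towards quinone, were all on the lower side. Ndufs8 had 81.1, 86.7 and 81.0 TPM in the DTPA libraries, against 142, 127 and 137 TPM in the control libraries, a change of -0.70 (limma adjusted p = 7.77e-08). Ndufv1, the NADH-binding subunit, changed by -0.44, Ndufs1 by -0.34 and Ndufs7 by -0.31, all called by limma (adjusted p = 9.95e-08, 3.04e-07 and 3.49e-04). Ndufv2 had 160.5, 167 and 165 TPM in the DTPA libraries, against 177, 174 and 172 TPM in the control libraries, a small change of -0.09 (limma adjusted p = 0.0199) that turned to 0.05 and 0.04 under median-of-ratios and trimmed-mean scaling. It also missed the threshold without control replicate 1 or DTPA replicate 1 (limma adjusted p = 0.0688 and 0.0785).

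Ndufs6, which binds a zinc ion in the peripheral arm (chr13:73319838-73328542), had 56.5, 54.2 and 63.1 TPM in the DTPA libraries, 84.8, 91.6 and 95.8 TPM in the DFO libraries, 93.4, 92.0 and 96.9 TPM in the SA libraries and 88.7, 96.4 and 83.0 TPM in the control libraries. Only the DTPA libraries stood apart, with a change of -0.62 (SE 0.07, limma adjusted p = 5.12e-06). The other zinc-binding subunit, Cox5b of complex IV (chr1:36691449-36693681), had 559, 549 and 545 TPM in the DTPA libraries, 942, 993 and 1037 TPM in the DFO libraries, 919, 887 and 897 TPM in the SA libraries and 895, 971 and 922 TPM in the control libraries. It changed by -0.75 with DTPA (limma adjusted p = 4.15e-09), and no DTPA library came near the lowest of the others. Across the 80 coding genes these changes lie on the larger side of the median of -0.44. Several other coding genes fell more, among them Ndufa4l2, Ndufb8, Ndufa5, Ndufc2, Atp5k, Atp5o and Atp5b.

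Complex II has only nuclear genes, and 3 of 4 fell with DTPA while the fourth did not pass, where 42.1% of all genes tested fell. Sdhc, a membrane anchor that holds the heme together with Sdhd, had 29.6, 34.8 and 31.2 TPM in the DTPA libraries, 54.6, 49.8 and 48.8 TPM in the DFO libraries, 48.1, 51.7 and 51.8 TPM in the SA libraries and 50.1, 51.0 and 53.3 TPM in the control libraries. Its DTPA change was -0.68 (limma adjusted p = 9.83e-07), and the other 3 groups overlapped. The second anchor, Sdhd, was far more abundant and had 926, 908 and 924 TPM in the DTPA libraries, 1151, 1182 and 1164 TPM in the DFO libraries, 1181, 1158 and 1162 TPM in the SA libraries and 1106, 1099.7 and 1112 TPM in the control libraries. The DTPA libraries lay below control and the DFO and SA libraries slightly above it, and the DTPA change was -0.27 (limma adjusted p = 3.21e-08). Sdha, the flavin-bearing subunit, changed by -0.20 (limma adjusted p = 1.54e-05). Sdhb, the iron-sulfur subunit, had 76.6, 79.8 and 81.1 TPM in the DTPA libraries, 88.2, 87.6 and 87.9 TPM in the DFO libraries, 95.0, 92.0 and 98.8 TPM in the SA libraries and 85.2, 78.7 and 84.2 TPM in the control libraries. The DTPA and control libraries overlapped, with a difference of -0.06 (95% interval -0.14 to 0.02, limma adjusted p = 0.148). Without control replicate 2 it was called lower (-0.10, limma adjusted p = 0.0268).

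All 8 genes of complex III fell with DTPA, with a median of -0.46, where 42.1% of all genes tested fell. Uqcrc2, one of the pair of core proteins, fell most: it had 161, 166 and 167 TPM in the DTPA libraries, 288, 292 and 287 TPM in the DFO libraries, 299, 291 and 290.3 TPM in the SA libraries and 289, 282 and 282 TPM in the control libraries, a change of -0.79 (limma adjusted p = 2.35e-11), and its partner Uqcrc1 changed by -0.63 (limma adjusted p = 2.89e-09). Both were chosen for mention after their values were seen. Uqcrfs1, the Rieske iron-sulfur protein, had 303, 290.5 and 307 TPM in the DTPA libraries, 424, 418 and 420.0 TPM in the DFO libraries, 424, 403 and 405 TPM in the SA libraries and 406, 401 and 412 TPM in the control libraries, and changed by -0.44 with DTPA (limma adjusted p = 2.34e-08). In all of these the DTPA libraries lay below every other library. The smallest fall of the complex was -0.19, in Uqcrq, which was not called under either rescaling.

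Genes of complex IV moved in both directions: of 14 tested, 10 fell, 3 rose and 1 did not pass with DTPA, with a median of -0.49. Among all genes tested, 42.1% fell and 23.5% rose. Cox7a1 (chr7:30184144-30186078), the form of subunit 7a that predominates in heart and skeletal muscle, had 992, 1007 and 1069 TPM in the DTPA libraries, 359.7, 354 and 351 TPM in the DFO libraries, 375, 361 and 366 TPM in the SA libraries and 345, 387 and 349 TPM in the control libraries. The DTPA libraries had more than 2 times the level of any other library, and the DFO and SA libraries fell within the control range. Its change was 1.50 (SE 0.04, limma adjusted p = 3.55e-11), the largest rise among the 93 members. Cox7a2, the form found in most tissues and named here after its values were seen, moved the other way. It had 240.0, 243 and 271 TPM in the DTPA libraries, 404, 374 and 390.3 TPM in the DFO libraries, 376, 363 and 396 TPM in the SA libraries and 414, 393 and 383 TPM in the control libraries, a DTPA change of -0.66 (limma adjusted p = 2.93e-07). Of the summed TPM of the pair, Cox7a1 made up 80.3 ± 0.445% in DTPA cells, 47.7 ± 0.810% in DFO cells, 49.3 ± 1.06% in SA cells and 47.6 ± 2.09% in control cells. The muscle genes Ckm, Myh6 and Actc1 were under 1 TPM in every library.

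Cox7a2l (chr17:83501918-83517330), a relative of the 7a subunits that joins complexes III and IV into supercomplexes, had 463, 467 and 459 TPM in the DTPA libraries, 307, 304 and 309 TPM in the DFO libraries, 319, 319 and 283 TPM in the SA libraries and 267, 267 and 282 TPM in the control libraries. The DTPA libraries were highest, the DFO and SA libraries, which overlapped, lay between, and control libraries were lowest, with no overlap between control and any treatment. Its change was 0.77 with DTPA, 0.17 with DFO and 0.17 with SA (limma adjusted p = 9.91e-09, 0.0195 and 0.0104). The third gene that rose was Cox8a, with 1574, 1485 and 1586 TPM in the DTPA libraries, against 1316, 1444 and 1369 TPM in the control libraries and a change of 0.17 (limma adjusted p = 0.00183).

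Ndufa4l2 (chr10:127514967-127517154), a relative of Ndufa4 known as a hypoxia-inducible gene, fell most of all members. It had 0.770, 0.339 and 0.455 TPM in the DTPA libraries, 8.48, 12.4 and 17.0 TPM in the DFO libraries, 4.92, 8.06 and 4.19 TPM in the SA libraries and 15.5, 22.3 and 16.2 TPM in the control libraries, the lowest DTPA value resting on 3 reads. DTPA libraries were lowest, SA libraries next, and DFO libraries reached into the control range. The change with DTPA was -3.64 (SE 0.25, limma adjusted p = 1.23e-07), and it was -4.91 with a pseudocount of 0.1 and -2.05 with a pseudocount of 5. With SA it changed by -1.52 (limma adjusted p = 0.00138), and with DFO the difference was -0.51 (95% interval -1.07 to 0.05, limma adjusted p = 0.237). Ndufa4 itself was far more abundant and had 219, 233 and 243 TPM in the DTPA libraries, 360.3, 339 and 347 TPM in the DFO libraries, 347, 324 and 342 TPM in the SA libraries and 379, 357 and 360.1 TPM in the control libraries, a DTPA change of -0.65 (limma adjusted p = 4.58e-08).

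Cox6b2 (chr7:4751792-4753094), the testis form of subunit 6b, had 421, 432 and 437 TPM in the DTPA libraries, 401, 380.0 and 399 TPM in the DFO libraries, 259, 269.8 and 256 TPM in the SA libraries and 432, 413 and 397 TPM in the control libraries. The DTPA and the DFO libraries each overlapped the control libraries, while the SA libraries lay well below all 3 groups, a change of -0.66 with SA (SE 0.03, limma adjusted p = 3.21e-07). The general form Cox6b1, named after its values were seen, had 1229, 1182 and 1304 TPM in the DTPA libraries, 1706, 1739 and 1748 TPM in the DFO libraries, 1714, 1677 and 1699 TPM in the SA libraries and 1765, 1749 and 1739 TPM in the control libraries. Cox6b1 changed by -0.50 with DTPA (limma adjusted p = 2.51e-08), and by -0.05 with SA, which was not called (limma adjusted p = 0.307). Cox6b2 thus made up 25.8 ± 0.875% of the pair in DTPA cells, 18.5 ± 0.557% in DFO cells, 13.4 ± 0.431% in SA cells and 19.1 ± 0.535% in control cells. The DTPA difference of Cox6b2 was 0.05 (limma adjusted p = 0.184) and became a called rise of 0.19 and 0.18 under the median-of-ratios and trimmed-mean scalings and of 0.08 without control replicate 1 (limma adjusted p = 0.0436).

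**Figure D3:**
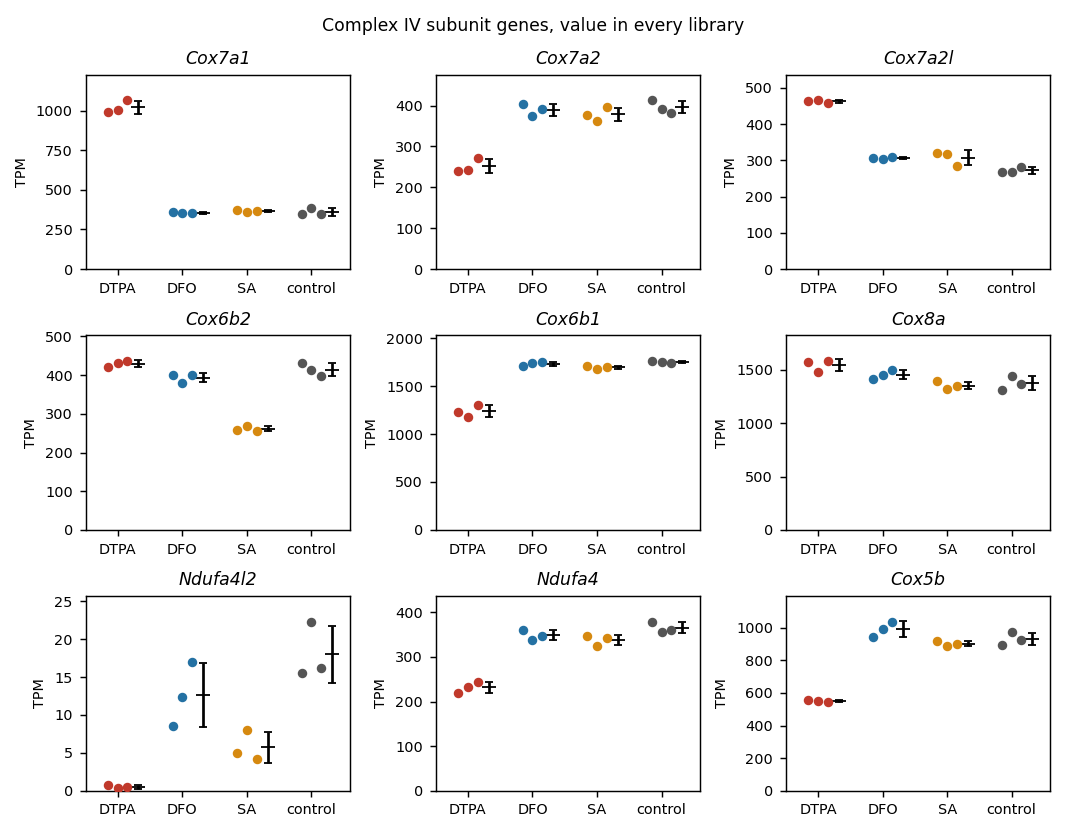
TPM of 9 complex IV genes in every library (points) with group means and SD (bars, n = 3), all axes starting at 0. Cox7a1 and Cox7a2l are highest in the DTPA libraries, Cox7a2, Cox6b1, Ndufa4, Cox5b and Ndufa4l2 are lowest there, and Cox6b2 is lowest in the SA libraries.

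In complex V, 14 of 17 genes fell with DTPA, 1 rose and 2 did not pass, with a median of -0.40. Among all genes tested, 42.1% fell and 23.5% rose. In the catalytic F1 head, 4 of 5 genes fell. Atp5b, which holds the catalytic sites (chr10:128083273-128090391), had 582, 586 and 578 TPM in the DTPA libraries, 1021, 1056 and 1017 TPM in the DFO libraries, 1007, 1012 and 1011 TPM in the SA libraries and 1021, 1013 and 1018 TPM in the control libraries. Its replicates were close, the DTPA mean was 0.572 of the control mean, and the change was -0.80 (SE 0.02, limma adjusted p = 3.34e-12). Atp5e, the small epsilon subunit (chr2:174461072-174464105), was the exception and had 114, 158 and 148 TPM in the DTPA libraries, 96.1, 132 and 105 TPM in the DFO libraries, 87.0, 112 and 85.2 TPM in the SA libraries and 105, 92.4 and 110.0 TPM in the control libraries. The DTPA libraries lay above the control libraries but overlapped the DFO libraries. Its change was 0.44 (SE 0.15, limma adjusted p = 0.0235). That call was lost with no expression filter (limma adjusted p = 0.0556), without control replicate 2 (0.37, limma adjusted p = 0.0838), without DTPA replicate 2 (0.34, limma adjusted p = 0.0931) and without DTPA replicate 3 (0.39, limma adjusted p = 0.0740).

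The peripheral stalk, which holds the head still against the turning rotor, was uneven. Atp5o, the stalk subunit that caps the head (chr16:91925223-91931630), had 65.4, 69.4 and 69.7 TPM in the DTPA libraries, 137, 139 and 129.5 TPM in the DFO libraries, 140.1, 127 and 135 TPM in the SA libraries and 145, 134 and 130.3 TPM in the control libraries, a DTPA change of -0.99 (limma adjusted p = 5.16e-09). The stalk genes Atp5h and Atp5j, named after their values were seen, changed by -0.71 and -0.69 (limma adjusted p = 1.83e-10 and 5.04e-09). Atp5pb, the b subunit and also named afterwards, had 353, 355 and 348 TPM in the DTPA libraries, 359, 368 and 362 TPM in the DFO libraries, 359, 354 and 351 TPM in the SA libraries and 370.4, 346 and 362 TPM in the control libraries. Its DTPA and control libraries overlapped, with a difference of -0.03 (95% interval -0.08 to 0.02, limma adjusted p = 0.298), although both rescalings gave a called rise of 0.10.

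The ring of c subunits is encoded by 3 genes whose mature protein is the same. Atp5g1 had 71.9, 67.4 and 69.7 TPM in the DTPA libraries, 117, 120.1 and 119 TPM in the DFO libraries, 117, 116 and 118 TPM in the SA libraries and 105, 111 and 110.5 TPM in the control libraries, a DTPA change of -0.63 (limma adjusted p = 2.67e-09). Atp5g3, the most abundant of the 3, had 235, 245 and 244 TPM in the DTPA libraries, 334, 335 and 325 TPM in the DFO libraries, 302, 301 and 309 TPM in the SA libraries and 326, 317 and 315 TPM in the control libraries, a DTPA change of -0.40 (limma adjusted p = 1.74e-08). In both genes the DTPA libraries were the lowest. Atp5g2 had 106, 115 and 113 TPM in the DTPA libraries, 124, 136 and 119 TPM in the DFO libraries, 133, 132 and 124 TPM in the SA libraries and 124, 117 and 114 TPM in the control libraries, and its DTPA difference of -0.09 was not called (95% interval -0.21 to 0.02, limma adjusted p = 0.146). Summed over the 3 genes, c subunit transcripts came to 422 ± 8.16 TPM in DTPA cells, 577 ± 13.7 TPM in DFO cells, 551 ± 1.10 TPM in SA cells and 546 ± 8.03 TPM in control cells. All 5 small membrane subunits outside the ring fell with DTPA. The largest fall among them was in Atp5k, the e subunit that helps pair ATP synthases (chr5:108433244-108434448), with 233, 238 and 277 TPM in the DTPA libraries, 486, 484 and 488 TPM in the DFO libraries, 459.6, 442 and 469 TPM in the SA libraries and 517, 507 and 482 TPM in the control libraries. Every DTPA library was far below the others, and the change was -1.01 (limma adjusted p = 1.33e-08).

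**Figure D4:**
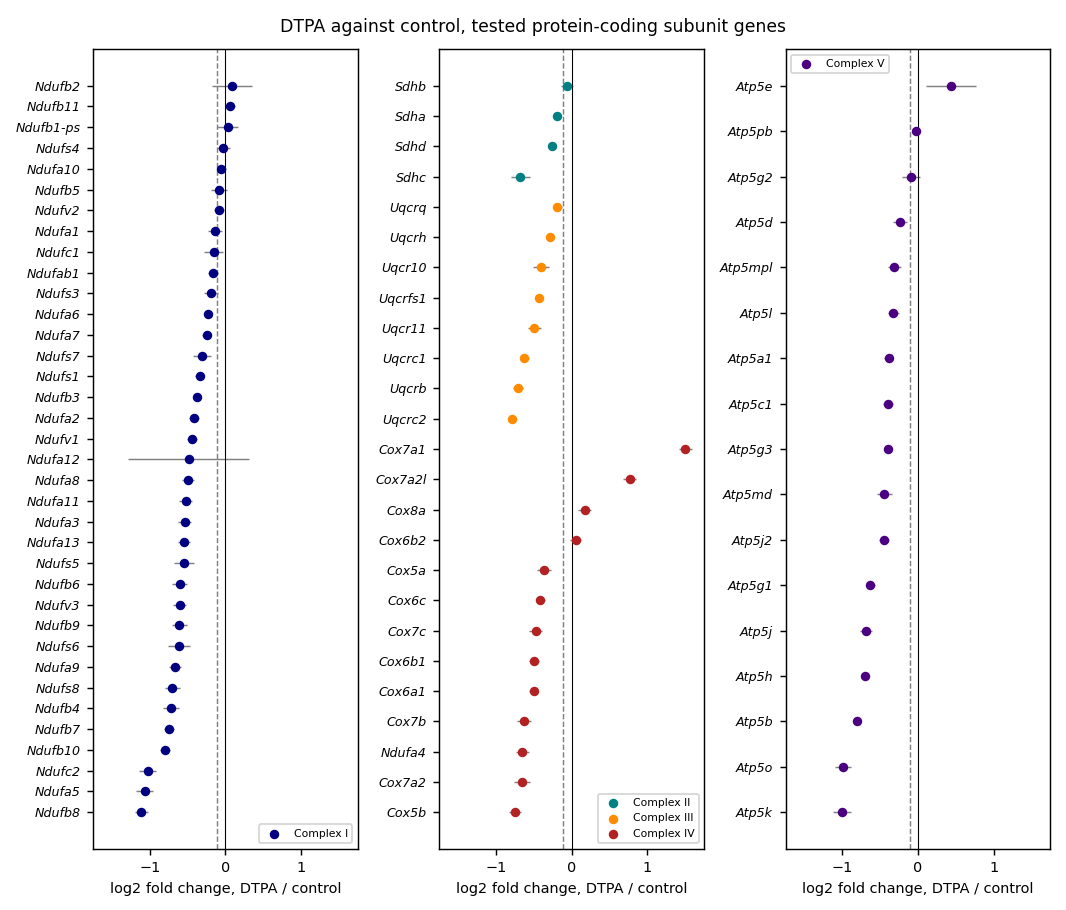
Log2 fold change, DTPA over control, of tested coding genes (points, Ndufa4l2 not drawn, with 95% intervals from limma as bars), by complex; the dashed line marks the median of all 11917 genes at -0.11. Most points lie left of that line, with Ndufb8, Ndufa5, Ndufc2 and Atp5k beyond -1, and the called rises drawn to the right of 0 are Cox7a1, Cox7a2l, Atp5e and Cox8a.

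DFO left the transcripts close to control. Of the 93 members, 5 rose, none fell and 88 did not pass by limma, and the median was 0.02. Over all genes 10.7% were called with DFO, 8.39% higher and 2.28% lower, so the members' count was below the background, and the median of all genes was 0.05. Leaving out Ndufa4l2, 73 of 79 tested coding genes differed from control by under 0.1 on the log2 scale. Among those that rose were Cox7a2l, given above, Atp5g1 (0.13), Sdhd (0.08) and Ndufa10, an accessory subunit of complex I. Ndufa10 had 163, 178 and 167 TPM in the DFO libraries, against 156, 154 and 153 TPM in the control libraries, with no overlap and a change of 0.13 (limma adjusted p = 0.0145). None of the 5 was called after either rescaling, where median-of-ratios scaling called 4 other members lower and trimmed-mean scaling 1. The same scalings turned the split over all genes to 423 higher and 646 lower and to 441 higher and 578 lower, where TPM gave 1000 higher and 272 lower. With single libraries left out, Sdhd was lost without DFO replicate 2, Atp5g1 without DFO replicate 2 or 3, Ndufa10 without control replicate 3, and Cox7a2l without control replicate 1 or 2 or DFO replicate 1 or 3. Without DFO replicate 2, as without DFO replicate 3, the members called numbered 3.

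Iron-sulfur subunits were not called with DFO. Over the 7 such genes (Ndufs1, Ndufs7, Ndufs8, Ndufv1, Ndufv2, Sdhb and Uqcrfs1), the differences from control lay between 0.00 and 0.09, with 95% intervals that together spanned -0.10 to 0.18 and a smallest limma adjusted p of 0.147. The heme anchors differed by -0.01 in Sdhc (95% interval -0.14 to 0.12) and 0.08 in Sdhd, the last of which was called (limma adjusted p = 0.0127). The zinc-binding Ndufs6 and Cox5b differed by 0.02 and 0.09, and neither was called.

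More members were called with SA than with DFO, most of them by small amounts. Of the 93, 12 rose, 4 fell and 77 did not pass, with a median of -0.01. Over all genes 22.2% were called with SA, 15.4% higher and 6.75% lower, with a median of 0.05, so the members' share was again below the background on the TPM scale. After median-of-ratios scaling the members' share was above the background, with 25 of the 93 members and 2748 of the 11917 genes called. Trimmed-mean scaling called 23 members and 2720 genes, also a share above the background. Sdhb, the iron-sulfur subunit of complex II, was highest in the SA libraries, whose lowest value of 92.0 TPM lay above the highest control value of 85.2 TPM. Its rise was 0.20 (SE 0.04, limma adjusted p = 0.00198). Other rises were in Ndufb10, an accessory subunit of complex I (0.12), Ndufv2 (0.11), Atp5g1 (0.11), Atp5c1, the central rotor shaft of ATP synthase (0.11), Ndufa7, another accessory subunit of complex I (0.10), Ndufa10 (0.10) and Sdhd (0.08). Also called, and named after its value was seen, was Ndufa6, another accessory subunit (0.09). The 12 include the copy Ndufb4c, which lay under 1 TPM in every control library and passed the filter through the SA libraries, so no change is read from it. Besides Ndufa4l2 and Cox6b2, the genes that fell were Atp5j (-0.10, limma adjusted p = 0.0472) and Atp5g3 (-0.07, limma adjusted p = 0.0438).

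Most of these SA calls depended on the scaling or on single libraries. Median-of-ratios scaling gave 3 higher and 22 lower, where TPM gave 12 and 4, and 7 of the 16 calls held in the same direction, among them Sdhb, Cox6b2, Ndufa4l2, Atp5j and Atp5g3. Over all genes it gave 1124 higher and 1624 lower, where TPM gave 1838 higher and 804 lower. With single libraries left out, the SA calls of Cox6b2, Ndufa4l2, Cox7a2l, Sdhb and Sdhd were kept in every such fit. However, Cox7a2l and Sdhd were not called under either rescaling. Cox7a2l was also not called when only the 6 libraries compared were fitted (limma adjusted p = 0.0616). Another 8 (Ndufb10, Ndufv2, Atp5g1, Atp5c1, Ndufa7, Ndufa10, Atp5j and Atp5g3) were each lost in at least 1, most often without control replicate 2 or 3 or an SA library, with their log2 changes staying between 0.07 and 0.15 for the 6 that rose and between -0.11 and -0.06 for the 2 that fell. Atp5j was called in only 2 of the 12 fits and Atp5g3 in only 4. Both were also lost without some single DTPA or DFO libraries. The members called numbered 10 without control replicate 2, 8 without control replicate 3 and 10 without SA replicate 3.

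Set directly against the other treatments, DTPA again gave the lower values in most members. These comparisons share the DTPA libraries with the one against control. Against DFO, 72 of the 93 members were lower in DTPA cells, 3 were higher and 18 did not pass by limma, where 65.9% of all genes were called, 46.4% lower and 19.6% higher. The 3 higher in DTPA were Cox7a1, Cox7a2l and Cox6b2, by 1.52, 0.59 and 0.13 on the log2 scale. Against SA, 72 were lower in DTPA cells, 5 were higher and 16 did not pass, where 67.1% of all genes were called, 47% lower and 20.1% higher. Those higher in DTPA were Cox7a1 (1.47), Cox7a2l (0.59), Cox6b2 (0.71), Atp5e (0.55) and Cox8a (0.19). Median-of-ratios scaling gave 59 lower and 10 higher against DFO, and 57 lower and 11 higher against SA. Between DFO and SA, 7 members were higher in DFO cells, none was lower and 86 did not pass, where 13.5% of all genes were called, 7.22% higher and 6.3% lower. Ndufa4l2 (1.01, limma adjusted p = 0.0227) and Cox6b2 (0.59, limma adjusted p = 2.40e-06) were higher in DFO cells by the most, and the other 5, Atp5d, Uqcrq, Cox5b, Atp5g3 and Ndufb7, by between 0.11 and 0.16. Median-of-ratios scaling gave 6 higher and 1 lower. The count of 7 was 3 with no filter and 3 without DFO replicate 2, DFO replicate 3 or SA replicate 3, and 4 without SA replicate 1.

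Pseudogene and near-identical copies share sequence with their parent genes, and the sources used here do not say how reads matching both were counted, so the split between copy and parent is uncertain. Of 13 copies tested, 7 fell with DTPA and none rose, where 42.1% of all genes tested fell and 23.5% rose. Under either rescaling 4 fell and 1 rose. Ndufs5-ps held 88.2 ± 0.542% of the TPM of itself and Ndufs5 in DTPA cells and 88.2 ± 0.606% in control cells, and Cox5b-ps held 27.6 ± 1.98% of its pair in DTPA cells and 26.8 ± 0.478% in control cells. These shares differed by less than their spread, while the summed level was lower with DTPA. Ndufs5 with its copy came to 437 ± 7.57 TPM in DTPA cells and 645 ± 43.5 TPM in control cells. Cox5b with its copy came to 761 ± 13.2 TPM in DTPA cells and 1269.5 ± 47.2 TPM in control cells. Atp5k-ps2, the copy with the largest called fall, had 10.7, 10.0 and 8.30 TPM in the DTPA libraries, against 17.1, 15.0 and 22.5 TPM in the control libraries, a change of -0.83 (limma adjusted p = 0.00152). The split between Ndufa12 and Ndufa12-ps varied between replicates, and Ndufa12 had 31.3, 19.3 and 15.0 TPM in the DTPA libraries, against 30.8, 33.4 and 25.3 TPM in the control libraries, with overlapping groups and no call (limma adjusted p = 0.262). Whether reads were counted by strand is not given either, and genes on the opposite strand overlap 19.7% of the exonic bases of Uqcrc2 and 12.7% of those of Atp5j.

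Subunits that the symbols do not take also fell with DTPA. All 4 that passed the filter fell: Atpif1 by 0.48, Cycs (cytochrome c) by 0.41, Cyc1 (cytochrome c1) by 0.26 and Cox4i1 by 0.09 on the log2 scale. Under median-of-ratios and trimmed-mean scaling the Cox4i1 difference turned to 0.04 and was not called, and the other 3 stayed lower. Over all genes tested, 42.1% fell. Atpif1, which inhibits ATP synthase working in reverse, had 1206, 1197 and 1232 TPM in the DTPA libraries, 1681, 1562 and 1679.8 TPM in the DFO libraries, 1543, 1655 and 1682 TPM in the SA libraries and 1657, 1733 and 1686 TPM in the control libraries. None of the 4 was called with DFO or SA on the TPM scale. Of the 13 genes of mitochondrial DNA, 5 rose with DTPA, none fell and 8 did not pass, where 23.5% of all genes tested rose. Under either rescaling 9 rose and none fell. mt-Co1, the catalytic core of complex IV, had 21753, 22029 and 21919 TPM in the DTPA libraries, 17601, 17788 and 17854 TPM in the DFO libraries, 18553, 18522 and 18546 TPM in the SA libraries and 17622, 17228 and 17897 TPM in the control libraries, a DTPA rise of 0.32 (limma adjusted p = 1.48e-08). The ratio of the summed TPM of mitochondrially encoded to nuclear coding subunits was 3.05 ± 0.0480 in DTPA cells, 2.09 ± 0.0360 in DFO cells, 2.21 ± 0.0193 in SA cells and 2.16 ± 0.0482 in control cells. The libraries were selected for poly(A) tails, so mitochondrial transcripts were read only as far as they carry one.

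Assembly factors build the complexes but are not part of them. With DTPA, 10 of 15 tested factors for complex I, 1 of 4 for complex II, 3 of 5 for complex III, 11 of 19 for complex IV and 2 of 3 for complex V fell, and 2 for complex II and 3 for complex IV rose, where 42.1% of all genes tested fell and 23.5% rose. The counts that fell are small and, in several lists, near that share. Under either rescaling 4 fell and 3 rose for complex I, none fell and 2 rose for complex II, 3 fell for complex III, 9 fell and 6 rose for complex IV, and 2 fell and 1 rose for complex V. Uqcc3, an assembly factor of complex III, had 65.0, 69.7 and 67.0 TPM in the DTPA libraries, 168, 177 and 181 TPM in the DFO libraries, 159, 161 and 162 TPM in the SA libraries and 159.7, 156 and 162 TPM in the control libraries, a DTPA change of -1.23 (limma adjusted p = 1.90e-11). Cox20, which helps mature the Cox2 subunit, had 30.9, 29.8 and 31.0 TPM in the DTPA libraries, 65.1, 62.9 and 65.8 TPM in the DFO libraries, 67.5, 71.6 and 66.7 TPM in the SA libraries and 74.6, 70.5 and 68.8 TPM in the control libraries, a DTPA change of -1.20 (limma adjusted p = 1.06e-10). In both genes each DTPA library had under 50% of the level of every other library. Among 13 genes of coenzyme Q synthesis, 9 fell and 2 rose, or 6 and 2 under either rescaling, and Coq3, a methyltransferase of that pathway, changed by -1.29 (limma adjusted p = 1.61e-07). With DFO, where 10.7% of all genes were called, 1 factor rose for each of complexes I to IV and 1 fell for complex IV, and 2 coenzyme Q genes rose. Under either rescaling only 1 rise and 1 fall for complex IV and 1 coenzyme Q rise were called. With SA, where 22.2% of all genes were called, 3 factors rose for complex I, 2 for complex II and 4 for complex IV, 1 fell for complex I and 1 for complex IV, and 2 coenzyme Q genes rose while 1 fell. Median-of-ratios scaling gave 3 higher and 3 lower for complex I, 1 higher for complex II and 1 higher and 3 lower for complex IV, and 2 coenzyme Q genes in each direction. None was called for complex V with either.

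Of 11 tested regulators of respiratory gene transcription, 4 fell, 3 rose and 4 did not pass with DTPA, close to the 42.1% and 23.5% over all genes tested. Under either rescaling 3 fell and 4 rose. Nrf1 had 7.30, 7.80 and 7.47 TPM in the DTPA libraries, 15.4, 16.3 and 15.9 TPM in the DFO libraries, 16.4, 15.8 and 16.0 TPM in the SA libraries and 15.8, 16.0 and 16.7 TPM in the control libraries, a DTPA change of -1.01 (SE 0.04, limma adjusted p = 1.39e-09). Gabpb1, a subunit of the ETS factor GABP, changed by -0.74 (limma adjusted p = 5.35e-08), while its DNA-binding partner Gabpa had 22.7, 24.4 and 26.9 TPM in the DTPA libraries, against 27.6, 25.1 and 26.1 TPM in the control libraries and was not called (limma adjusted p = 0.198). Polrmt, the mitochondrial RNA polymerase, rose by 0.45 (limma adjusted p = 3.58e-05). Nrf1 and Gabpb1 were not called with DFO or SA, with 95% intervals of -0.12 to 0.06 and -0.10 to 0.09 for Nrf1. The coactivator Ppargc1a was at 0 in every library, and its relative Ppargc1b rose with SA by 0.60 (limma adjusted p = 0.0143).

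Markers of other cell states were read beside these results. The 7 erythroid markers summed to 14949 to 15775 TPM in DTPA libraries, 15284 to 15530.1 TPM in DFO libraries, 14276 to 14858 TPM in SA libraries and 17887 to 18871 TPM in control libraries. With DTPA 5 of the 7 fell, among them the anion exchanger Slc4a1 by 3.95 on the log2 scale, and Alas2 rose by 0.40, while 4 fell and none rose with DFO and likewise with SA. Over all genes tested, 42.1% fell and 23.5% rose with DTPA, 2.28% fell with DFO and 6.75% fell with SA. Either rescaling gave 4 erythroid falls and 2 rises with DTPA, 4 falls with DFO and 5 falls with SA. The 6 megakaryocyte markers summed to 36.5 to 45.8 TPM in DTPA libraries, 10.3 to 10.9 TPM in DFO libraries, 8.27 to 9.87 TPM in SA libraries and 8.23 to 9.34 TPM in control libraries. Of the 4 megakaryocyte markers tested, 3 rose with DTPA and none fell, also under either rescaling, and Ppbp was at 0 throughout. In 2 of the 4 all DTPA libraries lay above all control libraries, and in the other 2 the groups overlapped. The 6 myeloid and mast cell markers were under 1 TPM in every library, and of the 4 lymphoid markers only Cd79a exceeded it. Cd79a had 1.45, 2.04 and 1.37 TPM in the DTPA libraries, 0.506, 0.329 and 0.744 TPM in the DFO libraries, 0.900, 0.577 and 0.525 TPM in the SA libraries and 0.757, 0.361 and 0.589 TPM in the control libraries. Its DTPA libraries stood above all others, and as it passed the filter through them, no test is read from it. The part of these shifts in the fall of respiratory transcripts was not tested.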

How the data were processed

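Poly(A) RNA of 12 libraries was sequenced on the Illumina platform after TruSeq Stranded mRNA preparation, per the labels' protocols. The submitters' processing notes name Trimmomatic 0.33, FastQC, HISAT2 2.1.0, featureCounts, edgeR and the mm10 build. Neither the annotation release nor the strand setting of the counting is given in the sources used. The deposited values were TPM per gene as the authors made them, and the notes do not say which step gave them. Whole reads were read back from the low TPM values only to give depth, and intervals and counts from them cover counting error only.

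The members were set by symbol, and they and the other gene lists were chosen with earlier results of these data known. Where a symbol had several rows, the row with the highest mean was kept. Biotypes and positions came from GENCODE M21 (93 symbols) and RefSeq GRCm38.p6 (8 symbols), and promoter windows from RefSeq.

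Groups followed titles and treatment tags. The limma 3.58.1 test (R 4.3.3) was fitted to log2(TPM + 1) with 1 mean per group over all 12 libraries, an intensity trend, a filter of 1 TPM in at least 3 libraries and Benjamini-Hochberg adjustment over 11917 genes at 0.05, and it was tested on simulated data. Tables were handled in Python 3.11.15 with pandas 2.3.3 and numpy 2.4.6. No library repeated another. Named were, per comparison with control, the 8 largest called rises and falls among members with a group mean of at least 5 TPM and no treated library inside the control range, with cofactor-bearing subunits, c subunits, isoform pairs and genes outside the symbol rule always named. Genes named on other grounds are marked as such. One gene that the counts include is not reported here. The alternatives tried were a pseudocount of 0.1 or of 5, dropping the filter, raising it to 5 TPM, median-of-ratios and trimmed-mean scaling, robust variance moderation, fits of only the 6 libraries compared, a replicate block and each library left out.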

Additional observations from a re-analysis of the deposited data

How the results depend on the processing

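The number of respiratory chain genes called with DTPA was 76 and lay between 71 and 77 under every alternative run. The direction of some calls changed with scaling. Under either rescaling 72 were called, 11 of them higher where TPM gave 5, and 66 were shared with the 76. Of the 93 members, between 71 and 77 were called with single libraries left out, with between 74 and 77 for DTPA against DFO and between 73 and 78 for DTPA against SA. The small DFO and SA counts moved more. With single libraries left out, between 3 and 7 members were called for DFO, between 8 and 18 for SA and between 3 and 8 for DFO against SA. Over all genes the ranges were 7415 to 7809 for DTPA, 840 to 1244 for DFO and 2039 to 2611 for SA. For DFO, trimmed-mean scaling left 1 member, and fitting only the 6 libraries compared left 3 members and 802 genes in all. For SA, median-of-ratios scaling called 25 members, and for DFO against SA the fit with no filter called 3. The DTPA change of Ndufv2 turned to 0.0466 under median-of-ratios and 0.0427 under trimmed-mean scaling, both of which shift all DTPA changes up. The cause of the other moves was not tested. Over the named genes and settings other than left-out libraries, 310 of 315 DTPA values, 300 of 315 DFO values and 281 of 315 SA values stayed on their side of the threshold. Called values among them kept their direction, while uncalled values were counted whatever their sign.

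Same-numbered libraries did not deviate together: the correlations of their deviations from group means had a median of 0.00169 and lay between -0.0433 and 0.0537, against a median of 0.00253 for different numbers, so the numbers were not taken to pair samples. With the replicate block, 75 members were called for DTPA, 5 for DFO, 14 for SA, 76 for DTPA against DFO, 78 for DTPA against SA and 6 for DFO against SA, with 7746, 1058 and 2432 genes in all for DTPA, DFO and SA against control. Atp5g3 and Atp5j were not called for SA under the block (limma adjusted p = 0.0771 and 0.0524). Members without 3 libraries at 1 TPM or more were not tested.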
